A study of Rattus norvegicus with 5 samples.

Results

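Gja1 and Atp2a2 are 2 of the 20646 genes whose expression was deposited for 5 groups of rats with and without myocardial infarction (MI). They were taken by their rat Ensembl identifiers, ENSRNOG00000000805 for Gja1 and ENSRNOG00000001285 for Atp2a2. The table holds identifiers only, so the pairing of these identifiers with the gene symbols comes from outside it and could not be checked against the RefSeq gene table used here, which paired 0 of the 20646 identifiers. For the same reason the myocardial origin of the tissue could not be checked by marker genes.

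Left ventricular wall of male SD rats, aged 7 to 8 weeks per the labels, was sequenced, with 1 library per group. The Normal group had no infarction. In the other 4 groups the left anterior descending coronary artery was ligated. MI had no further intervention, SNAP had an injection of the nitric oxide donor SNAP into the infarcted area, DTMS had the hollow conductive hydrogel suture stitched over that area, and S-DTMS had the same suture with SNAP delivered through its channel. The study's methods also describe saline given through the reservoir to a sutured group called shank. They do not state whether that group is DTMS. The labels place the sampling at 1 month, whereas the methods of the study place it a week after treatment. A figure legend of the study speaks of independent biological replicates for the RNA sequencing, whereas 1 column per group was analysed here, and whether that column stands for 1 rat, pooled RNA or a mean is not given in the sources used here. Differences between groups are therefore differences between single libraries and carry no p-value.

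Gja1 encodes connexin 43, the main gap junction protein of working ventricular myocardium. It lets current pass from myocyte to myocyte at the intercalated discs, and fibroblasts, smooth muscle and endothelial cells also make it. Atp2a2 encodes SERCA2, the pump that returns calcium from the cytosol to the sarcoplasmic reticulum and so ends each contraction. Its isoform SERCA2a is the cardiac form and is held back by phospholamban, while SERCA2b is found in most tissues. Loss or displacement of connexin 43 in the border of an infarct and low SERCA2 in the failing heart are textbook features of cardiac disease. The deposited values are sums per gene, so SERCA2a and SERCA2b were not separated, and the position of connexin 43 in the cell was not measured.

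The authors deposited FPKM, in which the fragments of a gene are divided by its length and by the library total. The fragments behind these values could be worked out as whole numbers for both genes, as the smallest numbers that gave whole lengths, and the library totals ranged from 16731024 in DTMS to 17379225 in SNAP. Both genes were deeply covered, Gja1 by 9695 to 13671 fragments over a length of 3127 bases and Atp2a2 by 91110 to 174202 fragments over 6620 bases. Intervals below are exact 95% intervals for counting error only and do not include the variation between rats.

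The Gja1 level was lowest in S-DTMS and highest in SNAP. It was 186 FPKM in Normal (interval 183 to 190), 195 in MI (192 to 199), 252 in SNAP (247 to 256), 202 in DTMS (199 to 206) and 182 in S-DTMS (178 to 186). SNAP thus stood apart above the other 4 libraries, which lay close together. The highest level was 1.38 times the lowest. In this order, the neighbours S-DTMS and Normal did not differ beyond counting error, with a ratio of 0.976 (0.949 to 1.00). The next neighbours, Normal and MI, and then MI and DTMS, differed by little more than counting error, with ratios of 1.05 (1.02 to 1.08) and 1.04 (1.01 to 1.06).

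The Atp2a2 level was lowest in S-DTMS and highest in DTMS, the groups that share the suture. It was 1115 FPKM in Normal (1109 to 1121), 1378 in MI (1371 to 1385), 1345 in SNAP (1339 to 1352), 1573 in DTMS (1565 to 1580) and 808 in S-DTMS (803 to 813). The highest level was 1.95 times the lowest, and no interval overlapped another. MI and SNAP, the closest neighbours, had a ratio of SNAP to MI of 0.976 (0.969 to 0.983). Atp2a2 alone held 0.738% of all fragments in Normal, 0.912% in MI, 0.891% in SNAP, 1.04% in DTMS and 0.535% in S-DTMS.

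**Figure D1:**
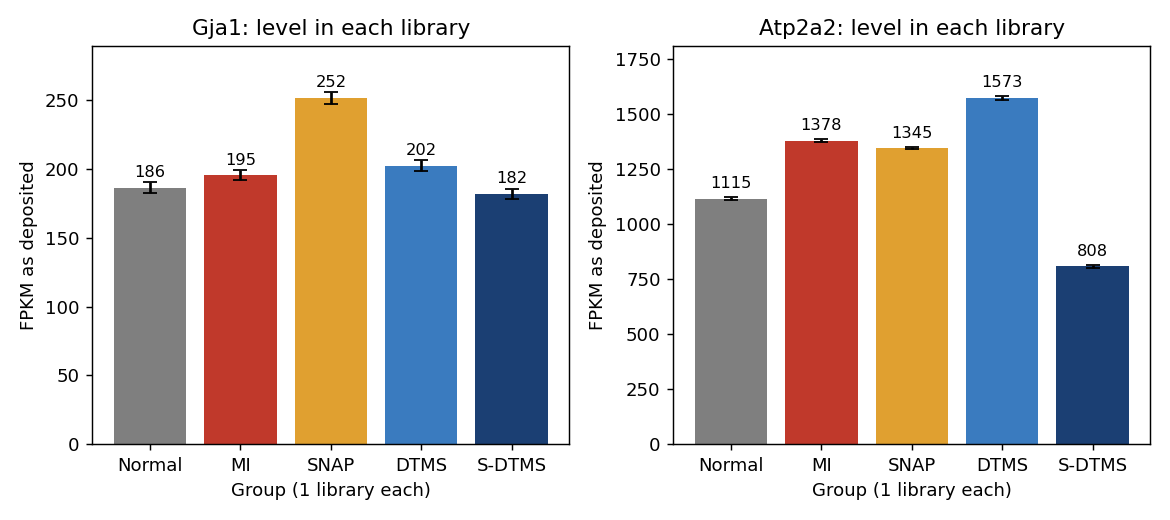
Levels of Gja1 (left) and Atp2a2 (right) in FPKM as deposited, with 1 bar per library for Normal, MI, SNAP, DTMS and S-DTMS and error bars for the exact 95% counting interval. Gja1 was highest in SNAP (252 FPKM) and lowest in S-DTMS (182 FPKM), whereas Atp2a2 was highest in DTMS (1573 FPKM) and lowest in S-DTMS (808 FPKM).

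Ranks within a library do not depend on how libraries are scaled. By FPKM, Atp2a2 was the gene of rank 49 in Normal, 42 in MI, 43 in SNAP, 35 in DTMS and 81 in S-DTMS. SERCA2 message was thus among the 100 most abundant per length in every library, with its lowest rank in S-DTMS. Gja1 ranked 424 in Normal, 371 in MI, 283 in SNAP, 352 in DTMS and 402 in S-DTMS, so that its lowest rank was in Normal and not in S-DTMS. S-DTMS was the lowest library for Gja1 as FPKM and with the median of ratios, whereas Normal was the lowest as TPM, a scale on which every library has the same sum.

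The first comparison asked whether the sutured hearts (DTMS and S-DTMS) differed from the others (Normal, MI and SNAP). For Gja1, the 2 sutured libraries lay at 202 and 182 FPKM, within or next to the range of 186 to 252 FPKM of the other 3, and the libraries overlapped. On the scale of log2(FPKM + 1) the sutured mean was lower by a difference of -0.12. This difference rested on SNAP, since without that library it was 0.0076. For Atp2a2, the sutured libraries lay at 1573 and 808 FPKM, on either side of the range of 1115 to 1378 FPKM of the others. The mean difference of -0.18 describes neither of them: it was -0.66 without DTMS and 0.30 without S-DTMS. Over the 13769 genes with at least 1 FPKM in at least 1 library, the sutured and the other libraries did not overlap at 11.5%, with both sutured libraries higher at 6.1% and lower at 5.41%. Neither Gja1 nor Atp2a2 belonged to these genes, also after scaling by the median of ratios or to TPM.

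A pattern like that of Atp2a2, with DTMS highest and S-DTMS lowest of the 5 libraries, was found at 5.1% of the 13769 genes. Among the 705 genes with a mean of at least 100 FPKM it was found at 11.8%, and at 9.43% of the 13769 once libraries were scaled by the median of ratios. The pattern of Gja1, with SNAP highest and S-DTMS lowest, was found at 2.14% of the 13769 genes, at 3.97% of the 705 and at 6.62% after that scaling.

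The libraries differed in the weight of their most abundant genes, by whose fragments FPKM also divides. The top 10 genes took at least 13.5% of the fragments in S-DTMS, 16.9% in the Normal library, and 21.5% to 23.2% in MI, SNAP and DTMS. Neither Gja1 nor Atp2a2 was among the 10 genes with the highest mean number of fragments over the libraries. That set was chosen apart from the top 10 of each library. The median log2 difference of all 13769 genes was not 0. Against Normal, it was -0.12 in MI, -0.27 in SNAP, -0.21 in DTMS and 0.033 in S-DTMS. Against MI, it was -0.14 in SNAP, -0.06 in DTMS and 0.15 in S-DTMS. S-DTMS had a median difference of 0.25 from DTMS and of 0.31 from SNAP. The 705 genes with a mean of at least 100 FPKM, to which both members belong, did not share the upward shift of S-DTMS. Among them the median difference of S-DTMS was -0.047 from MI, 0.0085 from DTMS, 0.010 from SNAP and -0.11 from Normal. The downward shifts of MI, SNAP and DTMS were seen among them too. Their median difference from Normal was -0.057 in MI, -0.15 in SNAP and -0.17 in DTMS. From MI, it was -0.13 in SNAP and -0.066 in DTMS. Differences are therefore given as deposited and also relative to the median of all genes. A member counted as past the limit when its log2 difference as deposited was at least 1 in either direction.

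Infarction without intervention was compared with the Normal group. Atp2a2 was higher in MI, with a log2 difference of 0.30 as deposited and 0.43 relative to the median of all genes. Gja1 was higher in MI by 0.068 as deposited and 0.19 relative to the median. Neither gene was lower in the infarcted library on any scale used here. Of the 13769 genes, 6.96% passed a log2 difference of 1 in either direction, and neither member did. A larger difference than that of Atp2a2 was seen at 41.9% of the genes, and than that of Gja1 at 84.6%.

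The suture without SNAP was compared in DTMS and MI. The suture and any saline given through it cannot be told apart here. Atp2a2 was higher in DTMS by 0.19 on the log2 scale, from 1378 to 1573 FPKM, and by 0.25 relative to the median. Gja1 differed by 0.050, or 0.11 relative to the median, from 195 to 202 FPKM. Past the limit of 1 were 4.65% of all genes and neither member. Of the 13769 genes, 52.3% had a larger difference than Atp2a2 and 85.7% a larger difference than Gja1, so that both lay among ordinary differences between these libraries.

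The suture with SNAP was compared in S-DTMS and MI. Atp2a2 was lower in S-DTMS, at 0.586 times the level in MI (0.581 to 0.591). The log2 difference was -0.77 as deposited and -0.92 relative to the median. For Gja1 the ratio was 0.931 (0.905 to 0.957), with a log2 difference of -0.10 as deposited and -0.26 relative to the median. That median was 0.15 over all genes but -0.047 over the 705 genes with a mean of at least 100 FPKM. On the TPM scale the difference of Gja1 was 0.036 in the other direction, so the direction for Gja1 depends on the scale. Past the limit of 1 were 14.5% of all genes and neither member. A larger difference in either direction than that of Atp2a2 was seen at 23.8% of the genes, and than that of Gja1 at 86.2%. Among the 705 genes with a mean of at least 100 FPKM, the shares were 32.3% and 88.7%. With the sign kept, 9.22% of all genes had a lower difference than Atp2a2 and 32.7% a lower one than Gja1. Among the 705 genes these shares were 18.9% and 47.5%.

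S-DTMS and SNAP share the nitric oxide donor and differ in the suture. They also differ in the route of the donor, which was injected in SNAP and delivered through the suture in S-DTMS. Suture and route cannot be told apart here. Atp2a2 was lower in S-DTMS by -0.74 on the log2 scale, with a ratio of 0.600 (0.596 to 0.605), and Gja1 by -0.47, with a ratio of 0.723 (0.705 to 0.742). Relative to the median of all genes, the differences were -1.04 for Atp2a2 and -0.77 for Gja1. That median was 0.31 over all genes but 0.010 over the 705 genes with a mean of at least 100 FPKM. Past the limit of 1 as deposited were 13.3% of all genes and neither member. A larger difference in either direction was found at 25.9% of the genes for Atp2a2 and at 48.6% for Gja1. Among the 705 genes with a mean of at least 100 FPKM, the shares were 36.0% and 58.0%. With the sign kept, 5.76% of all genes had a lower difference than Atp2a2 and 10.5% a lower one than Gja1. Among the 705 genes these shares were 16.9% and 28.7%.

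SNAP by injection was compared with MI. Gja1 was higher in SNAP, at 252 FPKM against 195 FPKM, with a ratio of 1.29 (1.25 to 1.32). Its log2 difference was 0.36 as deposited and 0.50 relative to the median, and 35.8% of all genes had a larger difference in either direction. Atp2a2 differed by -0.035 as deposited and by 0.11 relative to the median. Its direction turned with the scale, to 0.15 after scaling by the median of ratios. Past the limit of 1 were 6.33% of all genes and neither member.

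The 2 sutured libraries were farther apart for Atp2a2 than any other pair. S-DTMS had 0.514 times the level of DTMS (0.509 to 0.518), a log2 difference of -0.96, while 14.1% of all genes passed the limit of 1 between these libraries. With scaling by the median of ratios, the difference of Atp2a2 was -1.24. For Gja1 the ratio of S-DTMS to DTMS was 0.899 (0.875 to 0.924), with a log2 difference of -0.15 as deposited, -0.43 after that scaling and -0.05 as TPM. Against Normal, Atp2a2 in S-DTMS had a ratio of 0.724 (0.718 to 0.731), and Atp2a2 in DTMS a ratio of 1.41 (1.40 to 1.42).

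**Figure D2:**
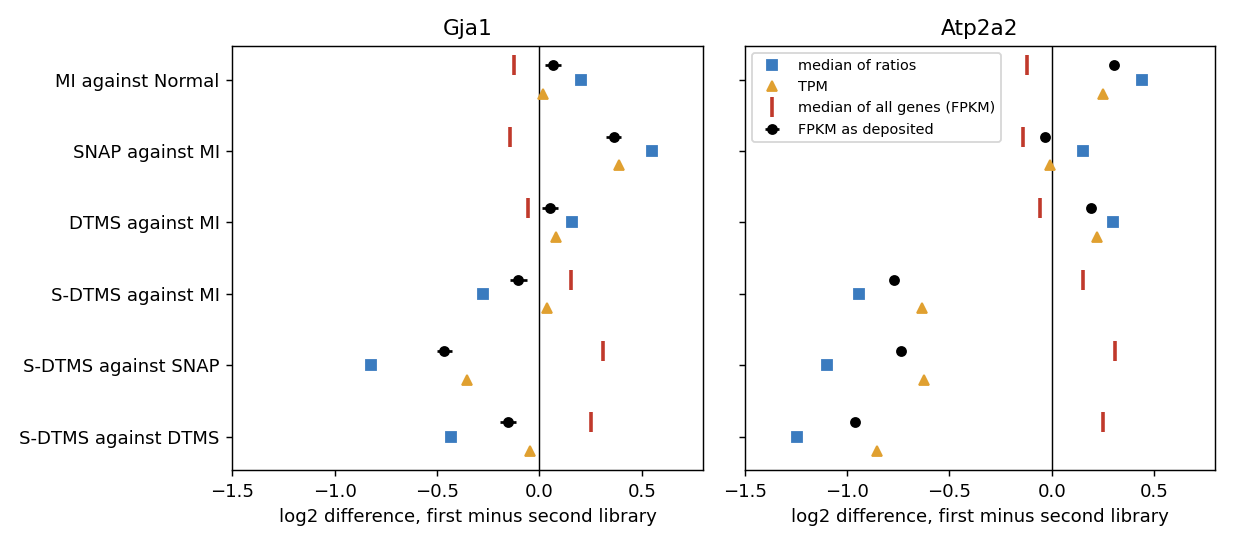
Log2 differences of Gja1 (left) and Atp2a2 (right) between pairs of libraries, first minus second, for FPKM as deposited (circles, with 95% counting intervals), after scaling by the median of ratios (squares) and as TPM (triangles). Red ticks give the median difference of all 13769 genes on the FPKM scale. In each comparison of S-DTMS with MI, SNAP or DTMS, Atp2a2 was lower on all 3 scales and its smallest difference was -0.62, whereas Gja1 in S-DTMS against MI changed sign with the scale.

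MI, SNAP, DTMS and S-DTMS form a layout of the suture by SNAP, in which the route of SNAP differs between the SNAP and S-DTMS groups. Without SNAP, the sutured library had the higher level of both genes, with log2 differences of 0.19 for Atp2a2 and 0.050 for Gja1. With SNAP, the sutured library had the lower level of both, with -0.74 and -0.47. The difference between these differences was -0.93 for Atp2a2, with a counting error of 0.0079 (SE), and -0.52 for Gja1, with a counting error of 0.028. After scaling by the median of ratios it was -1.40 for Atp2a2 and -0.98 for Gja1. As deposited, its median over the 13769 genes was 0.40, and 25.0% of the genes had a larger value in either direction than Atp2a2 and 53.2% a larger value than Gja1. With the sign kept, 5.32% of the genes had a lower value than Atp2a2 and 11.2% a lower value than Gja1. Higher in DTMS than in MI and lower in S-DTMS than in SNAP, as both members were, were 13.2% of the 13769 genes. In bulk tissue, fewer cells that carry a message and less of it per cell cannot be told apart, and the share of myocytes in each library was not measured.

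**Figure D3:**
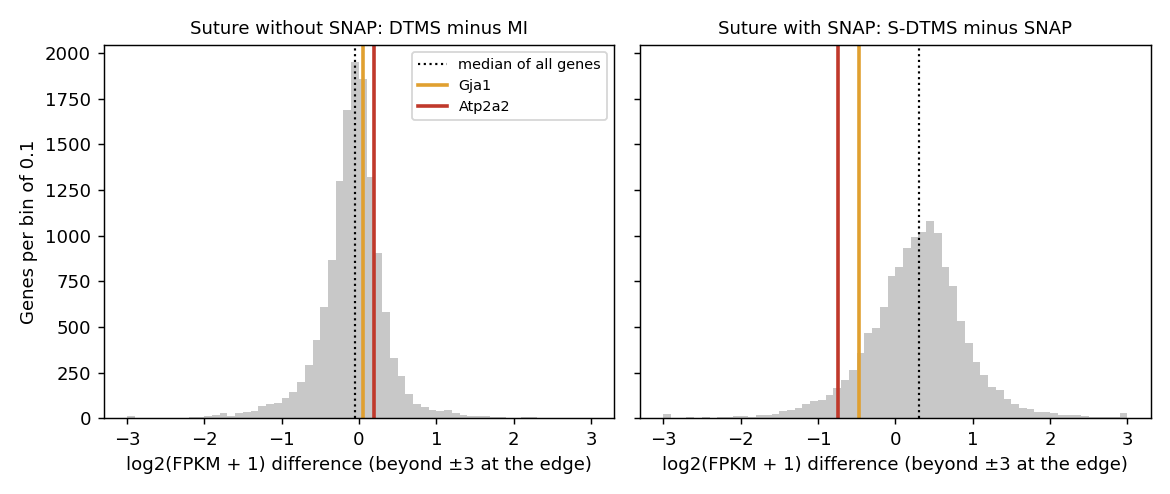
Log2(FPKM + 1) differences of all 13769 genes for the suture without SNAP (DTMS minus MI, left) and with SNAP (S-DTMS minus SNAP, right), as counts of genes per bin of 0.1 with values beyond 3 placed at the edge. Vertical lines mark Gja1, Atp2a2 and the median of all genes. On the left both genes lay above the median of -0.06, Atp2a2 at 0.19 and Gja1 at 0.050. On the right both lay below the median of 0.31, Atp2a2 at -0.74 and Gja1 at -0.47.

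The ratio of Atp2a2 to Gja1 within a library is free of any scaling between libraries. Per length, Atp2a2 had 5.98 times the level of Gja1 in Normal (5.86 to 6.11), 7.05 times in MI (6.91 to 7.19), 5.35 times in SNAP (5.25 to 5.44), 7.77 times in DTMS (7.62 to 7.93) and 4.44 times in S-DTMS (4.35 to 4.53). The ratio was thus above Normal in the infarcted libraries without SNAP and below Normal in those with SNAP, and the sutured libraries again held the highest and the lowest value. With 1 library per group this split by SNAP was not tested. The share of gene pairs that split the libraries in the same way was not counted. On the log2 scale the ratio was lower in S-DTMS than in DTMS by -0.81 and lower in SNAP than in MI by -0.40, with counting errors of 0.021 and 0.020 (SE). As judged from FPKM, the lower ratio in SNAP than in MI came with more Gja1 at a near equal Atp2a2 level. The lower ratio in S-DTMS than in DTMS came with less Atp2a2. Against Normal, the SNAP library had more of both, at 1.35 times for Gja1 and 1.21 times for Atp2a2.

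**Figure D4:**
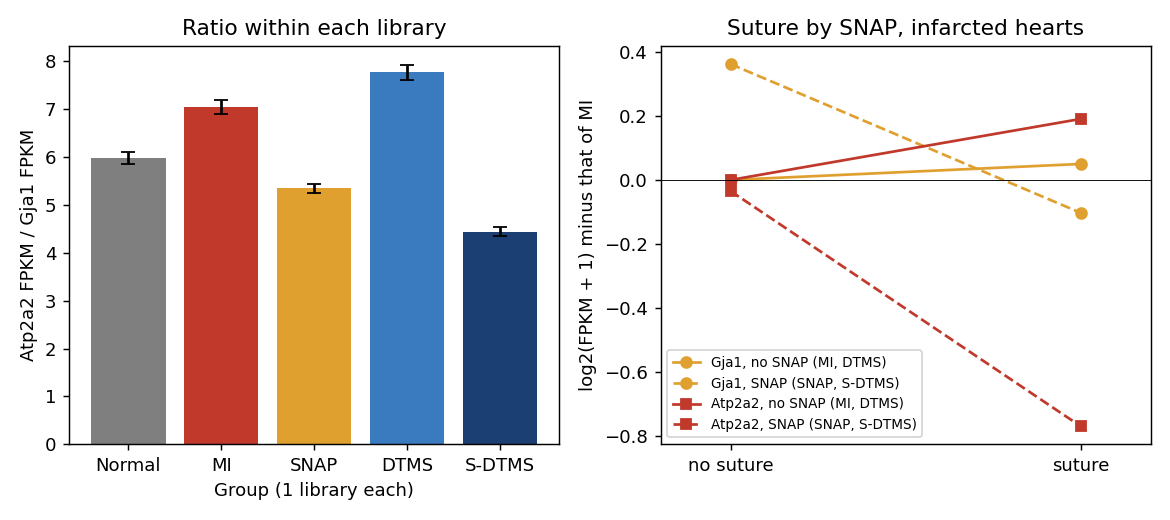
Left, ratio of Atp2a2 to Gja1 FPKM in each library with 95% counting intervals, from 4.44 in S-DTMS to 7.77 in DTMS. Right, log2(FPKM + 1) of Gja1 (circles) and Atp2a2 (squares) minus that of MI, without and with the suture, in hearts without SNAP (solid lines) and with SNAP (dashed lines). The solid lines go up to 0.19 for Atp2a2 and 0.050 for Gja1, and the dashed lines go down to -0.77 and -0.10.

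How much Gja1 varied over the 5 libraries together, next to other genes, depended on the scale. As FPKM, its log2 range from the lowest to the highest library was 0.47, against a median of 0.75 over the 13769 genes, and 20.7% of the genes had a smaller range. After scaling by the median of ratios its range was 0.82 against a median of 0.67, and 62.3% of the genes had a smaller one. As TPM, 10.7% had a smaller one. The range of Atp2a2 was 0.96 as FPKM, 1.24 with the median of ratios and 0.85 as TPM, and 66.8%, 82.4% and 50.8% of the genes had a smaller range in this order.

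Genes of similar pattern were sought by the root mean square difference of log2(FPKM + 1) over the 5 libraries, after each gene was centred on its own mean, among 7156 other genes with at least 10 FPKM in at least 1 library. Nearest to Atp2a2 was ENSRNOG00000018044, with a root mean square difference of 0.030. Its levels were 452 FPKM in Normal, 582 in MI, 555 in SNAP, 655 in DTMS and 348 in S-DTMS, in the same order as Atp2a2. The next was ENSRNOG00000002669, at 0.038. Nearest to Gja1 was ENSRNOG00000004449, at 0.038, with 67.7 FPKM in Normal, 71.6 in MI, 90.4 in SNAP, 76.9 in DTMS and 70.0 in S-DTMS. The next was ENSRNOG00000014076, at 0.043. The table does not pair these identifiers with gene names. Within a difference of 0.1 lay 66 genes for Atp2a2 and 29 for Gja1. Gja1 and Atp2a2 differed from each other by 0.29, so that Gja1 took place 946 among the neighbours of Atp2a2.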

How the data were processed

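Ventricular RNA was sequenced in 5 groups with 1 library each. Each column was matched to its group through the description in the labels, and 0 columns belonged to other samples. The authors sequenced on an Illumina NovaSeq instrument and deposited FPKM values. The submitters' processing notes list HTSeq and mm9, a mouse build, although the identifiers are rat genes. The aligner, the annotation and the use of strand are not given in the sources used here, and no coordinates are printed. The study's edgeR step needs replicates and was not repeated.

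Fragments were worked out from the FPKM values. The commonest ratio between low values gave relative depths, the smallest whole multiples gave the value of 1 fragment, and totals were set by the need for whole gene lengths, met by 97.9% of 5769 low genes. A gene whose 5 fragment numbers share a common divisor receives too few fragments, so shares of abundant genes are lower limits. On simulated data, 5 of 5 totals were recovered, as were the fragments of 97 of 100 genes, and 198 of 200 genes were called that had been given a log2 change of 2 in DTMS against MI. That change was well past the limit of 1, and the simulated fragments varied by counting error only. The simulation therefore checks the computation and not the calling of differences between rats.

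Differences are of log2(FPKM + 1), which understates changes of low genes, and the background holds the 13769 genes with at least 1 FPKM in at least 1 library. Ratios have exact conditional binomial (Clopper-Pearson) intervals, and levels have exact Poisson intervals. For the median of ratios, the ratios of a library to the geometric mean of each gene were taken, and the library was divided by their median. The members and lists were chosen with earlier results of these data known. Named were the members and, for want of names, the 2 identifiers of most similar pattern to each. Lists for intercalated discs, ion channels, calcium cycling, cardiac transcription factors and cell type markers, 159 symbols in all, were not analysed here because no identifier could be paired with a symbol. Alternatives were a pseudocount of 0.1, the median of ratios, TPM, leaving out each library, other filters and, added after seeing the data, totals without the 10 most abundant genes and the ranges of both genes on each scale. The software was pandas 2.3.3 and SciPy 1.17.1 with NumPy 2.4.6 under Python 3.11.15, and Matplotlib 3.10.9 for figures.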

Additional observations from a re-analysis of the deposited data

Results flagged for a closer look

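These results are listed because a difference had opposite directions in 2 settings. The suture difference did so without and with SNAP for both genes. For Atp2a2 it was 0.19 without SNAP (DTMS minus MI) and -0.74 with SNAP (S-DTMS minus SNAP), so that the value with SNAP minus the value without was -0.93. For Gja1 it was 0.050 and -0.47, which differ by -0.52. The SNAP difference of Gja1 likewise had opposite directions, with 0.36 between hearts without the suture and -0.15 between sutured hearts (S-DTMS minus DTMS). With 1 library per group these differences between differences were not tested, and only counting error is known. Scaled by the median of ratios, the difference between differences was -1.40 for Atp2a2 and -0.98 for Gja1, and as TPM it was -0.85 and -0.44.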

How the results depend on the processing

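The 12 differences of Gja1 and Atp2a2 were recomputed under 4 alternatives, and 15 of 48 values stayed within counting error, among them all with a pseudocount of 0.1. The sign changed in 3 of 48. After scaling by the median of ratios, Gja1 gave -0.17 for sutured against others, 0.20 for MI against Normal, 0.55 in SNAP against MI, 0.16 for DTMS against MI, -0.27 for S-DTMS against MI and -0.82 for S-DTMS against SNAP, and Atp2a2 gave -0.23, 0.44, 0.15, 0.30, -0.94 and -1.10 in this order. As TPM, Gja1 gave -0.067 for sutured against others, 0.015 for MI against Normal, 0.036 for S-DTMS against MI and -0.36 for S-DTMS against SNAP, and Atp2a2 gave -0.12, 0.25, -0.0068, 0.22, -0.63 and -0.62 in the order above. With totals without the 10 most abundant genes, Gja1 gave -0.16, 0.14, 0.40, -0.23 and -0.64, in the order above without DTMS against MI, and Atp2a2 gave -0.21, 0.38, 0.0079, 0.23, -0.90 and -0.91. Each scaling multiplies a library by a single factor, which moves all its genes together. Leaving out each library moved sutured against others from -0.21 to 0.0076 for Gja1 and from -0.66 to 0.30 for Atp2a2. The shares of all genes past the limit with a minimum of 5 FPKM, and of those without overlap, stayed within 1.5 times. Dropping the filter tests nothing, since a gene under 1 FPKM throughout cannot pass the limit and only the number of genes tested changes. Depth does not limit these 2 genes, but the lack of replicates does. No paired analysis was possible because there is only 1 library in each group.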

Other observations

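The exact order of libraries seen for Atp2a2, from DTMS over MI, SNAP and Normal to S-DTMS, was shared by 164 of 7156 other genes with at least 10 FPKM in at least 1 library. The order seen for Gja1, from SNAP over DTMS, MI and Normal to S-DTMS, was shared by 54 of them. These counts hold for FPKM as deposited. DTMS and SNAP, which share neither suture nor drug, had a ratio of DTMS to SNAP of 0.804 (0.784 to 0.825) for Gja1 and of 1.17 (1.16 to 1.18) for Atp2a2.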
